A study of Mus musculus with 7 samples.

Results

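Guanylate-binding proteins (GBPs) are large GTPases of the interferon response. The members described here are the 10 genes Gbp1 to Gbp10, taken by symbol from 23420 gene rows of a bulk RNA sequencing table of mouse hearts. The table holds 11 rows named Gbp and a number, and the row outside the set, Gbp11, is given beside its relatives. The libraries came from 7 mice, 4 labelled control and 3 labelled ICI-myocarditis, a model of the heart inflammation that immune checkpoint inhibitors (ICI) can cause. All 7 mice, controls included, were labelled Pdcd1-/- for the gene of the checkpoint receptor PD-1, although reads of Pdcd1 were present in every library. Control mice were Ctla4+/+ and ICI-myocarditis mice were Ctla4+/-, carrying 1 intact copy of the gene for the checkpoint receptor CTLA-4. Mice of both groups were untreated and 3 to 6 weeks old. The tissue label reads whole heart and the protocol names frozen ventricle. Nothing in the labels gives sex, litter or strain, and the Ctla4 and Pdcd1 alleles are named without saying which cells they affect.

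GBPs are made at low levels in resting cells and are among the genes most strongly switched on by interferon-gamma, which signals through JAK kinases. The proteins bind GTP, assemble into coats on the membranes of intracellular bacteria and parasite vacuoles, and help to expose microbial DNA and lipopolysaccharide to the AIM2 and caspase-11 inflammasomes. In a heart they can be made by infiltrating leukocytes and by resident cells that sense interferon.

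The mouse genes lie in a pair of clusters. Gbp5, Gbp7, Gbp3, Gbp1 and Gbp2 lie in that order on the plus strand of chromosome 3, from the start of Gbp5 (chr3:142496934-142522344) through Gbp7 (chr3:142530336-142550151), Gbp3 (chr3:142560016-142573213) and Gbp1 (chr3:142594816-142619179) to the end of Gbp2 (chr3:142620663-142638008). Gbp8 (chr5:105012513-105053609), Gbp9 (chr5:105076464-105110357), Gbp4 (chr5:105115767-105139586), Gbp10 (chr5:105215699-105239533) and Gbp6 (chr5:105270702-105295871) lie on the minus strand of chromosome 5. The coordinates are those of RefSeq on GRCm38.p6, where Gbp1 is listed under its current symbol Gbp2b.

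RefSeq promoter sequences, of 250 bases before and 50 bases after a transcription start on GRCm38.p6, were matched for 5 of the 10 members, all on chromosome 3. They were searched on both strands for the core of the interferon-stimulated response element (ISRE) that IRF factors bind, spelled as GAAA, any 2 bases and GAAA again, and for TTCNNNGAA, the gamma-activated site (GAS) of interferon-gamma signalling. The windows listed here are shown because all 5 members rose with ICI-myocarditis. They read 5′ to 3′ on the plus strand of chromosome 3, and the capitals mark the ISRE core, which appears as its reverse complement.
Gbp1, chr3:142594700-142594729: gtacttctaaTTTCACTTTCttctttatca
Gbp2, chr3:142620594-142620623: actcttttagTTTCACTTTCactgtcttaa
Gbp3, chr3:142559989-142560018: caggacacagTTTCAGTTTCtatttcccag
Gbp5, chr3:142496759-142496788: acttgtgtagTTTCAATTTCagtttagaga
Gbp7, chr3:142530273-142530302: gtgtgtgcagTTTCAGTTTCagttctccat

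The ISRE core was found in 5 of 5 members with a promoter sequence and in 1079 of 27025 genes with one. Counted by promoter entry, the core was found in 3.44% of 32851 entries of all genes. Counted from the transcription start of the promoter entry, which in Gbp1 and Gbp3 lies inside the gene span given above, its first base lay at -137 in Gbp1, -59 in Gbp2, -45 in Gbp3, -165 in Gbp5 and -53 in Gbp7. Gbp3 had 2 promoter entries, and the one with the match held another that overlapped it. GAS matches were found in 2 members, Gbp5 and Gbp7, in 2582 of the 27025 genes and in 8.30% of all promoter entries. Both motifs occurred together in 0.454% of all promoters. In the windows that follow, the capitals mark the GAS letters.
Gbp5, chr3:142496872-142496901: tggccgttatTTCTCAGAAccaagcacaga
Gbp7, chr3:142530239-142530268: aagcagaagcTTCTCAGAAagtcagcacaa
Gbp7, chr3:142530220-142530249: tccgttttctTTCCAGGAAaagcagaagct

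These GAS matches began at -52 in Gbp5 and at -87 and -106 in Gbp7, and Gbp5 held a further one at -245. These matches describe letters in a window, and no binding data were part of the samples. Gbp4, Gbp6, Gbp8, Gbp9 and Gbp10 had no promoter entry in the sequences used.

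Several members are close copies of each other, which matters for how reads can be assigned. Over aligned bases of the coding sequences in GENCODE M21, Gbp6 and Gbp10 were 98.4% identical, with 30 differing bases among 1836. The 5 members on chromosome 5 shared between 89.6% and 98.4% of aligned bases. On chromosome 3 the closest pairs were Gbp1 with Gbp2 at 82.5% and Gbp3 with Gbp7 at 78.3%, and Gbp5 was no closer than 68.0% to any member. The stretch of Gbp6 and Gbp10 from coding base 1567 to 1626 is shown because it holds 9 of the differing bases, in capitals, and is therefore among the places where a read can tell the pair apart.
Gbp6: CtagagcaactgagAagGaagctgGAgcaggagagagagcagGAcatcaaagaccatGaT
Gbp10: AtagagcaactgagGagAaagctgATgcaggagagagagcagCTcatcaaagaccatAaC

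**Figure D1:**
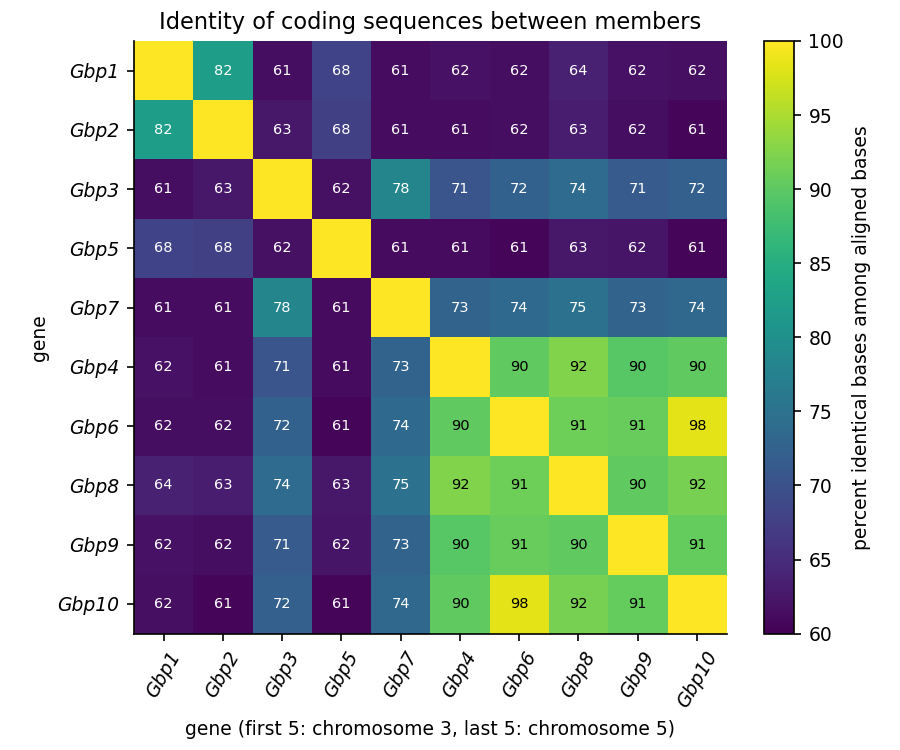
Percent of identical bases among aligned bases of the coding sequences, for each pair of members; both axes list the genes, with the 5 chromosome 3 members first and the 5 chromosome 5 members last, and the colour scale runs from 60 to 100 percent. The chromosome 5 members form a block from 89.6% to 98.4%, with Gbp6 and Gbp10 as the closest pair.

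A read length of 150 bases was used, in pairs. Of the 150-base windows along the longest coding transcript, 30.3% of those of Gbp6 and 44.6% of those of Gbp10 occurred unchanged in a transcript of another member, and none of the windows of the other 8 members did. The longest identical run between the coding sequences of Gbp6 and Gbp10 was 421 bases. GENCODE M21 also annotates a gene, Gm43302, that spans both, and with it 76.5% of Gbp6 windows and 63.2% of Gbp10 windows occurred in another gene. For Gbp7 the share was 8.93%, with the pseudogene Gm43802. How reads from shared stretches were counted is not given in the sources used here, so the split between Gbp6 and Gbp10 is uncertain and their summed value is given as well.

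Levels are normalized counts, the number of reads assigned to a gene divided by 1 size factor per library. Libraries held between 20931730 and 39037176 reads assigned to genes. Differences were tested with limma on log2(normalized count + 1), and a positive fold change on that scale means a higher level in ICI-myocarditis. A gene was called where its p-value, adjusted over all 15258 genes tested, was under 0.05. Of the targeted genes, Ctla4 read 29.2, 113, 69.2 and 41.3 in controls 1 to 4 and 282, 251 and 373 in ICI-myocarditis libraries 1 to 3, and Pdcd1 reads were present in all libraries despite the Pdcd1-/- label, at 2.50 to 244 in controls and 1096 to 1481 in ICI-myocarditis. The alleles and the exons removed are not described in the labels, so these counts do not check the genotypes. The libraries may share litters or cages, and p-values measure only the spread between these 7 libraries.

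Across the family, 9 of 10 members were called higher in ICI-myocarditis and none was called lower, where 11.7% of all genes tested were called higher, 4.0% lower and 15.7% in either direction. The median log2 fold change of the 10 members was 3.29, against -0.02 for all genes tested. Members ranged from 1.51 for Gbp9 to 6.63 for Gbp1, and all 10 lay above 0, as did 7341 of the 15258 genes. In 9 members every ICI-myocarditis library was above every control, which was so for 17.3% of all genes tested. Gbp9 was the exception in both counts.

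Control 2 stood apart from the other controls in every member. Its level was between 3.37 times (Gbp9) and 55.7 times (Gbp10) the mean of controls 1, 3 and 4, and in each member it was the highest control. The ICI-myocarditis mean was still above it in all 10 members, by 1.13 times for Gbp9 and up to 6.11 times for Gbp1. Without control 2, all 10 members were called, where 14.9% of all genes were called higher, and the log2 fold changes rose to between 1.96 (Gbp9) and 7.98 (Gbp1). T cell markers were also highest in control 2, with a sum of 2072 normalized counts where the other controls had 344 to 479. NK cell markers summed to 204 there (12.5 to 42.4 in the other controls), neutrophil markers to 217 (49.4 to 171) and endothelial markers to 98645 (40073 to 83088). The neutrophil sum in control 2 was mostly Csf3r, at 179. S100a9 read 16.0 there, above control 1 at 5.04 and below controls 3 and 4 at 55.8 and 56.3, so the neutrophil list did not move together. Cardiomyocyte markers were lowest in control 2, at 2369810 against 3781090 to 4796840, and so were skeletal muscle markers, at 21938 against 39722 to 64422. The skeletal muscle list includes Ckm and Acta1, which heart muscle also expresses, so its sum does not measure skeletal muscle alone. Fibroblast and pericyte markers were lowest there by a small margin, at 37644 against 37958 to 54112 and at 37048 against 37971 to 49172. Macrophage markers, at 18895, lay within the range of the other controls, 13684 to 19083. The part of these markers in the level of the Gbp genes in control 2 was not tested.

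The 9 calls were not equally stable. Without ICI-myocarditis library 3, 5 members were called (5.51% of all genes higher), namely Gbp1, Gbp2, Gbp3, Gbp6 and Gbp10. Without ICI-myocarditis library 2, 7 were called (7.07%). Without control 1 or without control 3, 6 were called (8.33% and 7.4%), and the members lost were Gbp4, Gbp5 and Gbp8. On the reads recovered from the table, edgeR called 4 members, Gbp2, Gbp3, Gbp6 and Gbp7 (10.1%), DESeq2 called 8, without Gbp8 and Gbp10 (14.2%), and limma-voom with quality weights called 10 (16.4%). Gbp2, Gbp3 and Gbp6 were called in each of the 18 alternatives run.

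**Figure D2:**
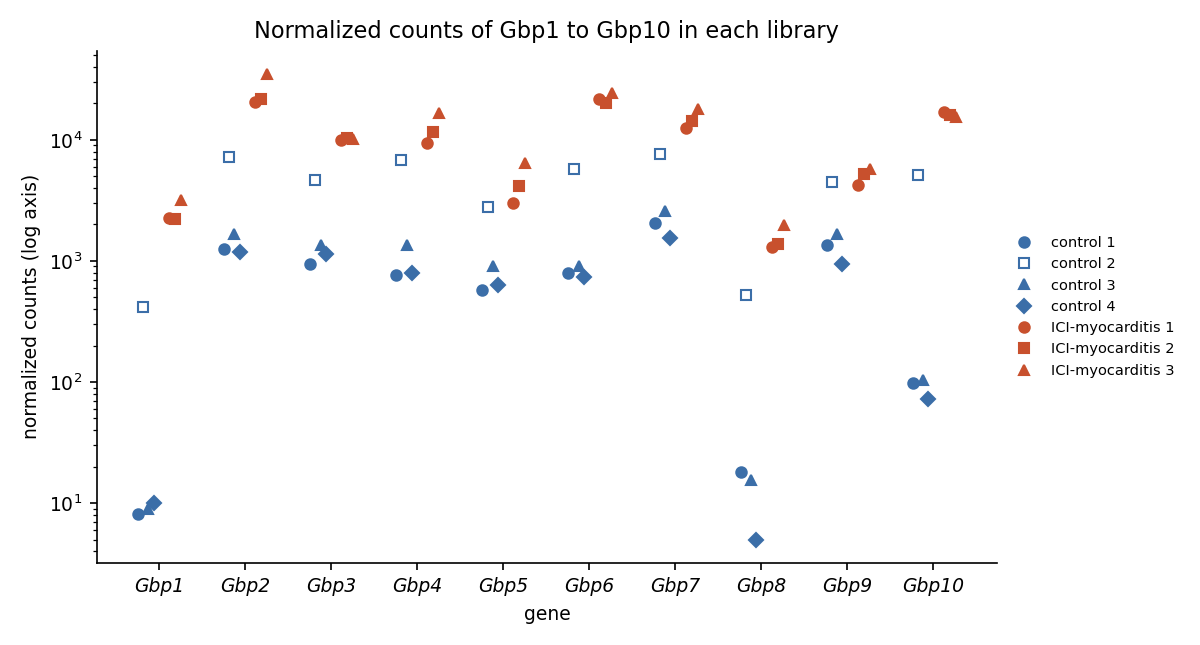
Normalized counts (log axis) of each member, 1 symbol per library, with the 4 controls in blue and the 3 ICI-myocarditis libraries in orange; control 2 is the open square. Control 2 is the highest control for all 10 genes, and only for Gbp9 does it lie above an ICI-myocarditis library, at 4469 against 4265.

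Gbp1, Gbp2 and Gbp5 encode the mouse GBPs that carry a CaaX motif, the signal for attachment of a lipid tail that anchors them to membranes. Gbp1 read 8.07, 417, 8.93 and 10.01 normalized counts in controls 1 to 4 and 2240, 2231 and 3169 in ICI-myocarditis libraries 1 to 3. It was close to the minimum of 10 normalized counts used for testing in 3 controls and above 2000 in every ICI-myocarditis heart, and the groups did not overlap. Its log2 fold change was 6.63 ± 1.20 (SE), the largest of the family (limma adjusted p = 0.00786). The call was lost with edgeR (adjusted p = 0.0518), and the adjusted p-value was 1.02e-06 with limma without control 2.

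Gbp2 acts at bacteria and vacuoles and, with Gbp5, in AIM2 activation by cytosolic bacteria. Gbp2 read 1248, 7144, 1653 and 1179 in controls and 20553, 21872 and 34903 in ICI-myocarditis libraries. Library 3 was the highest, the groups did not overlap, and the lowest ICI-myocarditis library was 2.88 times control 2. Gbp2 rose by 3.62 ± 0.583 log2 units (SE; limma adjusted p = 0.00532), and the adjusted p-value stayed at or under 0.0258 in all 18 alternatives.

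Gbp5, also linked to assembly of the NLRP3 inflammasome, read 571, 2784, 906 and 629 in controls and 3005, 4184 and 6400 in ICI-myocarditis libraries. The groups were only just apart, with ICI-myocarditis library 1 at 1.08 times control 2. Gbp5 rose by 2.14 ± 0.519 log2 units (SE; limma adjusted p = 0.0238). Gbp5 also varied most among the ICI-myocarditis hearts, with a coefficient of variation of 38.1% (n = 3). Its call was lost in 5 of 18 alternatives, with adjusted p-values up to 0.0994.

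Gbp3 and Gbp7 lie side by side on chromosome 3 and are each other's closest relatives. Gbp3 read 942, 4611, 1358 and 1146 in controls and 9989, 10260 and 10140 in ICI-myocarditis libraries, an almost constant level in the inflamed hearts (coefficient of variation 1.34%, n = 3). Its log2 fold change was 2.65 ± 0.480 (SE; limma adjusted p = 0.00795). The groups did not overlap, and control 2 was at 4.01 times the mean of the other controls.

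Gbp7 has been tied to autophagy and to assembly of the phagocyte oxidase. It read 2075, 7697, 2581 and 1551 in controls and 12436, 14296 and 17954 in ICI-myocarditis libraries, without overlap. Its log2 fold change was 2.38 ± 0.486 (SE; limma adjusted p = 0.0120). The call was lost only without ICI-myocarditis library 3 (limma adjusted p = 0.0513).

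The chromosome 5 members Gbp4, Gbp6, Gbp8, Gbp9 and Gbp10 are more alike in sequence, and less is known of what each does alone. Gbp6 read 789, 5736, 916 and 739 in controls and 21551, 20037 and 24129 in ICI-myocarditis libraries. The coefficient of variation among the inflamed hearts was 9.45% (n = 3), with the highest at 1.20 times the lowest, and the lowest of them was 3.49 times control 2. Gbp6 rose by 4.04 ± 0.643 log2 units (SE; limma adjusted p = 0.00504).

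Gbp10, its near copy, read 98.8, 5106, 104 and 72.6 in controls and 17048, 15953 and 15474 in ICI-myocarditis libraries. Here 3 controls were near 100 and control 2 was far above them, yet below every ICI-myocarditis library. The log2 fold change was 6.01 ± 1.28 (SE; limma adjusted p = 0.0139) and 7.46 ± 0.204 without control 2. The call was lost with edgeR and with DESeq2, at adjusted p-values up to 0.137. With the normalized counts of Gbp6 and Gbp10 added together, the log2 fold change was 4.50 ± 0.805 (SE, limma adjusted p = 0.00756). The sum does not depend on how reads were split within the pair, but any reads left out or counted for Gm43302 would be missing from it.

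Gbp4 read 763, 6857, 1350 and 801 in controls and 9373, 11513 and 16494 in ICI-myocarditis libraries. The groups did not overlap, and the lowest ICI-myocarditis library was 1.37 times control 2. Gbp4 rose by 2.97 ± 0.683 log2 units (SE; limma adjusted p = 0.0193), and the call was lost in 5 of 18 alternatives, with adjusted p-values up to 0.0785.

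Gbp8 was, with Gbp1, the lowest member in control hearts per kilobase of transcript. It read 18.1, 527, 15.6 and 5.005 in controls and 1307, 1386 and 1976 in ICI-myocarditis libraries. The groups did not overlap, and control 2 was 40.7 times the mean of the other controls. The log2 fold change was 5.59 ± 1.24 (SE; limma adjusted p = 0.0168), with adjusted p-values up to 0.106 in the 5 of 18 alternatives where the call was lost.

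Gbp9 was the member that did not pass the threshold. It read 1363, 4469, 1669 and 945 in controls and 4265, 5229 and 5708 in ICI-myocarditis libraries. Control 2 lay above ICI-myocarditis library 1, so the groups overlapped. The log2 fold change was 1.51 ± 0.454 (SE; limma adjusted p = 0.0522). It passed in 4 of 18 alternatives, which were the pseudocount of 5, DESeq2, limma-voom and the fit without control 2 (limma adjusted p = 0.000659). Whether Gbp9 changed less than the other members was not tested.

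**Figure D3:**
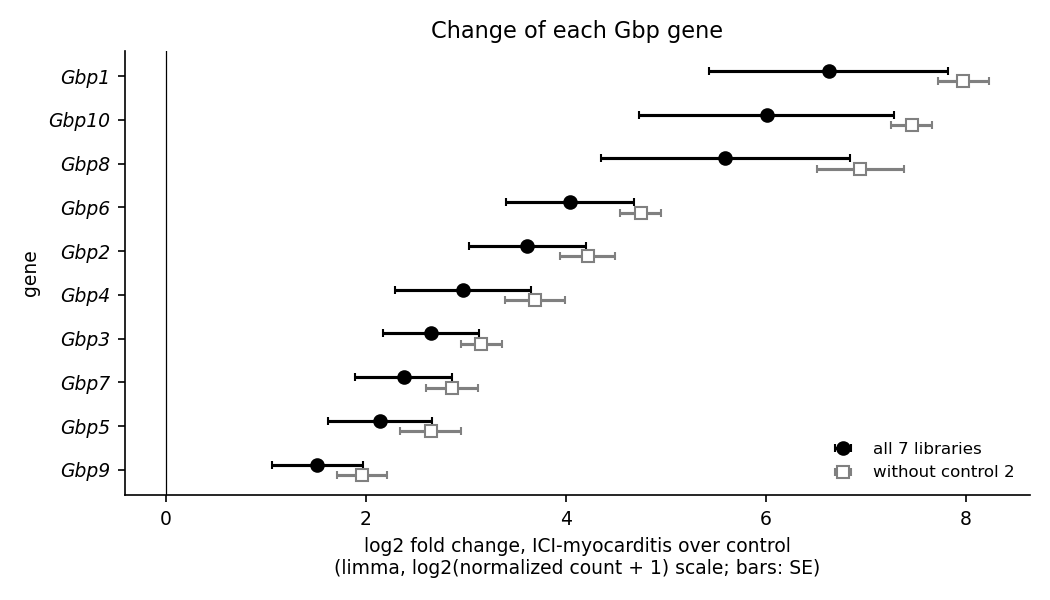
Log2 fold change of each member (ICI-myocarditis over control, limma, log2(normalized count + 1) scale, bars are 1 SE), with all 7 libraries (filled) and without control 2 (open). The order runs from Gbp1 at 6.63 to Gbp9 at 1.51, and all 10 values are larger and their errors smaller without control 2.

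The table also carries the authors' own comparison. Of the 10 members, 6 had an adjusted p-value in the authors' deposited table, and all 6 were under 0.05, where 12.9% of genes with an adjusted p-value were called higher. In the authors' deposited table the log2 fold changes of these were 3.20 for Gbp2, 2.35 for Gbp4, 2.33 for Gbp3, 2.10 for Gbp7, 1.89 for Gbp5 and 1.26 for Gbp9, the last with an adjusted p-value of 0.0452. Gbp1, Gbp6, Gbp8 and Gbp10 had a fold change but no p-value in the authors' deposited table, at log2 values of 4.52, 3.42, 3.46 and 3.59. In these 4 members control 2 was at 46.3, 7.04, 40.7 and 55.7 times the mean of the other controls, and in the other 6 at 3.37 to 7.06 times.

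Taken as a share of all reads, the 10 members made up 0.0240, 0.176, 0.0354 and 0.0189% of reads in controls 1 to 4. In ICI-myocarditis libraries 1 to 3 they made up 0.356, 0.378 and 0.508%. The group means were 0.0635 ± 0.0751% (SD, n = 4) and 0.414 ± 0.0821% (SD, n = 3), and the lowest ICI-myocarditis library was above the highest control. The summed normalized counts of all members rose by 3.16 ± 0.598 log2 units (SE; limma adjusted p = 0.00896). The mean log2 level over the members was 8.40, 11.68, 8.73 and 8.16 in controls and 12.80, 12.92 and 13.27 in ICI-myocarditis, a difference of 3.76 that is given without a test.

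The make-up of the family total also differed between the groups. Of the summed normalized counts of the 10 members, Gbp10 made up 1.25, 11.26, 0.983 and 1.03% in controls and 16.8, 14.9 and 11.35% in ICI-myocarditis. Gbp6 made up 8.67 to 12.6% in controls and 17.7 to 21.2% in ICI-myocarditis. Gbp2 made up 15.6 to 16.7% in controls and 20.2 to 25.6% in ICI-myocarditis. Gbp7 was the largest share in every control, at 17.0 to 26.3%, and made up 12.2 to 13.4% in ICI-myocarditis. Gbp9 made up 9.86 to 17.3% in controls and 4.19 to 4.89% in ICI-myocarditis. Ranges of the groups did not overlap for Gbp1, Gbp2, Gbp6, Gbp8 and Gbp10 (higher share). The same held for Gbp3, Gbp5, Gbp7 and Gbp9 (lower share), and the ranges overlapped for Gbp4. For Gbp10 the groups were only just apart, with control 2 at 11.26% and ICI-myocarditis library 3 at 11.35%. The shares of Gbp6 and Gbp10 depend on the uncertain split of reads between them. Shares sum to 100%, so a larger share of some members lowers that of the others, and these shares were not tested.

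The ratio of Gbp10 to Gbp6 was 0.125, 0.113 and 0.0981 in controls 1, 3 and 4, 0.890 in control 2, and 0.791, 0.796 and 0.641 in ICI-myocarditis. Control 2 was thus on the side of the inflamed hearts in this ratio, while in the levels of both genes it was below them. The ratio depends on the uncertain split of reads between the pair. The members on chromosome 3 held 61.5, 49.95, 61.6 and 63.8% of the family total in controls and 47.4, 49.4 and 53.2% in ICI-myocarditis.

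**Figure D4:**
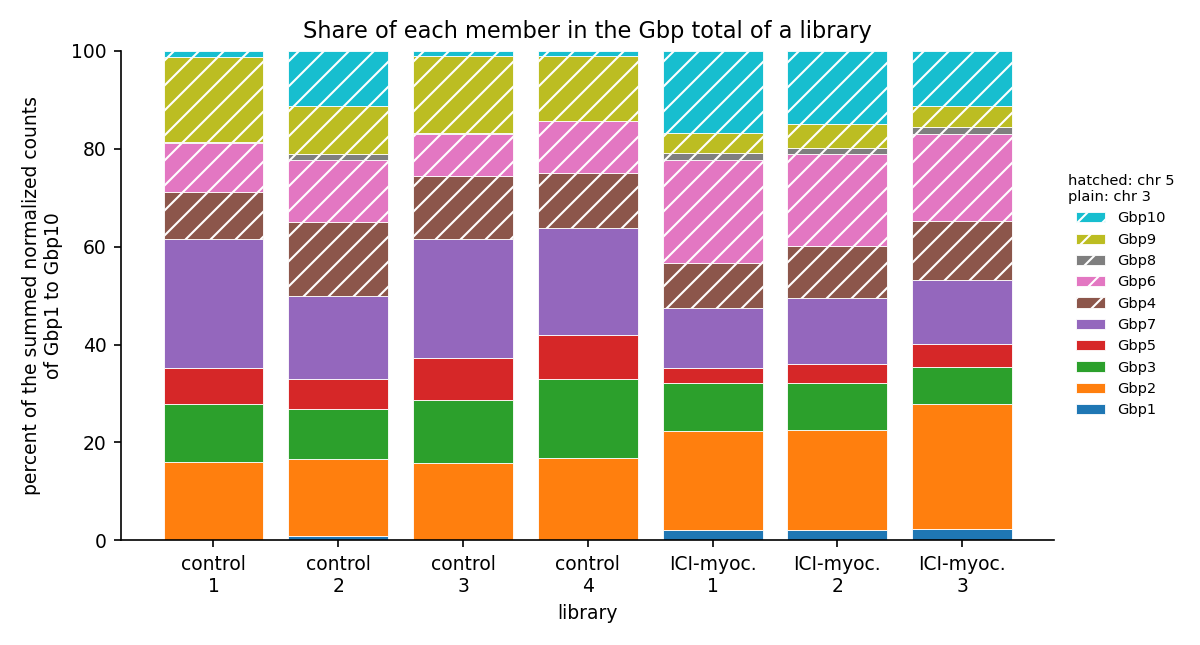
Share of each member in the summed normalized counts of the 10 members (percent, stacked to 100), for each of the 7 libraries; hatched bars are chromosome 5 members and plain bars are chromosome 3 members. Gbp10 takes 0.983 to 1.25% in controls 1, 3 and 4, and 11.3 to 16.8% in control 2 and the ICI-myocarditis libraries.

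Levels of different genes were compared per kilobase of the longest coding transcript in GENCODE M21. In ICI-myocarditis hearts Gbp2 was highest at 10245 ± 3152 normalized counts per kilobase (SD, n = 3), followed by Gbp6 at 8412 ± 795 and Gbp10 at 4580 ± 229. Gbp2 and Gbp6 did not differ beyond their spread. Gbp1, at 902 ± 191, and Gbp8, at 633 ± 149, were the lowest. Their ranges overlapped, from 790 to 1123 for Gbp1 and from 531 to 804 for Gbp8, and this difference was not tested. In controls Gbp2 was again the highest, at 1115 ± 1152 (SD, n = 4), and Gbp1 the lowest, at 39.3 ± 72.3, and in both genes control 2 was the highest control. Per kilobase of coding length the order in ICI-myocarditis began with the same 3 genes, and in controls Gbp7 came before Gbp2.

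Gbp11, the remaining Gbp row, is annotated by RefSeq as a transcribed pseudogene in the chromosome 5 cluster. It read 6.05, 125, 10.1 and 1.25 in controls and 259, 308 and 409 in ICI-myocarditis, with control 2 again the highest control. Its log2 fold change was 4.72 ± 1.11 (SE; limma adjusted p = 0.0209), and the call was lost in 7 of 18 alternatives. In the authors' deposited table Gbp11 had an adjusted p-value of 0.0840.

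Genes beside the clusters had log2 fold changes between -0.76 and 2.69. Of 12 neighbours, the first 3 tested genes on either side of each cluster, 1 was called higher, where 11.7% of all genes were. In 2 of the 12, every ICI-myocarditis library was above every control, as in 17.3% of all genes. The median log2 fold change of the neighbours was 0.11. The called gene was Unc5c, a netrin receptor, with a rise of 2.69 on the log2 scale (limma adjusted p = 0.0263). Its mean normalized count was 13.5 ± 7.64 over the 4 controls and 97.3 ± 75.6 over the 3 inflamed hearts (SD). The Unc5c call was lost without ICI-myocarditis library 2 or 3, with limma adjusted p-values up to 0.126. On the chromosome 3 side, Pdlim5 had a log2 fold change of 0.01, Bmpr1b 0.11, Ccbl2 (current symbol Kyat3) -0.76, Gtf2b 0.11 and Pkn2 -0.15, none past the threshold. On the chromosome 5 side, Abcg3, a transporter, had 1.58 (limma adjusted p = 0.0526), Zfp951 0.51, D930016D06Rik -0.59, Lrrc8b 0.22, Lrrc8c 0.07 and Lrrc8d 0.54. Whether members and neighbours differed in their change was not tested.

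The list named interferon-gamma signalling held 13 genes known to act upstream of Gbp genes. It was not confined to interferon-gamma, since Ifnar1, Ifnar2, Stat2 and Irf9 belong to type I interferon signalling too. Of the 13, 7 were called higher and none lower, where 11.7% of all genes tested were called higher and 4.0% lower. The median log2 fold change of the list was 0.82. The ligand Ifng read 2.02, 55.5, 4.47 and 0 in controls and 244, 283 and 583 in ICI-myocarditis, and like the Gbp genes it was highest of the controls in control 2 (log2 fold change 5.96 ± 1.14 SE, limma adjusted p = 0.00935). The feedback inhibitor Socs1 rose by 4.55 on the log2 scale, the transcription factors Irf8 by 3.04, Irf1 by 2.29 and Stat2 by 1.67, and the kinase Jak2 by 0.82 (limma adjusted p between 0.00363 and 0.0359). Stat2 and Jak2 lost their calls in 6 and 8 of 18 alternatives, and Irf1 in 1. The receptor genes Ifngr1 and Ifngr2 had log2 fold changes of 0.31 and -0.47, Ifnar1 and Ifnar2 of 0.58 and 0.52, Irf9 of 0.76 and Jak1 of -0.02, and none of these passed the threshold. The list counted 4 calls without ICI-myocarditis library 3.

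Immunity-related GTPases are smaller GTPases that work with GBPs at vacuoles. Of 13 listed, 8 could be tested, and 7 of these were called higher with a list median of 3.52, a count that edgeR and DESeq2 also gave. Of all genes, 11.7% were called higher with limma, 10.1% with edgeR and 14.2% with DESeq2. The lowest p-values were those of Irgm2 (log2 fold change 3.17), Irgm1 (4.11) and Tgtp2 (3.29), with limma adjusted p between 0.00374 and 0.0043. Irgm1 read 1115, 6389, 1301 and 1027 in controls and 31314, 28119 and 31979 in ICI-myocarditis. As in the Gbp genes, control 2 was the highest control in all 7 called genes, at 3.36 to 12.1 times the mean of the other controls. Several of these genes are near copies too, and reads may be shared between them.

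Inflammasome and pyroptosis genes were called higher in 9 of 13 tested, with a median of 2.18, where 11.7% of all genes were called higher. The list is wider than the AIM2 and caspase-11 inflammasomes to which GBPs help to expose microbial ligands. Zbp1, a nucleic acid sensor, rose by 4.57, Casp1 by 2.73 and Casp4, which encodes caspase-11, by 2.38 on the log2 scale (limma adjusted p = 0.00376, 0.00383 and 0.0112). The count for this list fell to 3 without ICI-myocarditis library 3 or without control 1, to 4 without ICI-myocarditis library 2 or without control 3 and to 5 without ICI-myocarditis library 1.

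Enzymes that attach and trim the lipid tail of CaaX proteins gave no call with limma among 9 genes (median -0.03). An unadjusted limma p under 0.05 was found in 2 of the 9, and in 4598 of all 15258 genes tested. edgeR called 0 of the 9 and DESeq2 called 1 higher, where these tools called 10.1% and 14.2% of all genes higher. Pggt1b had a log2 fold change of -0.41 (limma adjusted p = 0.145) and Fnta of -0.44 (limma adjusted p = 0.431). The autophagy conjugation list includes genes known to guide GBPs to vacuoles, such as Atg3 and Atg16l1, beside others of the same machinery. It gave no call among 11 tested with limma, edgeR or DESeq2 (median -0.07) and none had an unadjusted limma p under 0.05. Atg16l1, Map1lc3b and Atg3 had log2 fold changes of -0.32, -0.48 and 0.19. Of 16 other dynamin-like and large GTPases, Gbp11 and the antiviral Mx1 (log2 fold change 3.17, limma adjusted p = 0.0191) were called, and Mfn1 had -0.80. The 2 called genes were 12.5% of the list, close to the 11.7% of all genes called higher. Both of these calls were lost with edgeR and without ICI-myocarditis library 2, ICI-myocarditis library 3, control 1 or control 3.

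**Figure D5:**
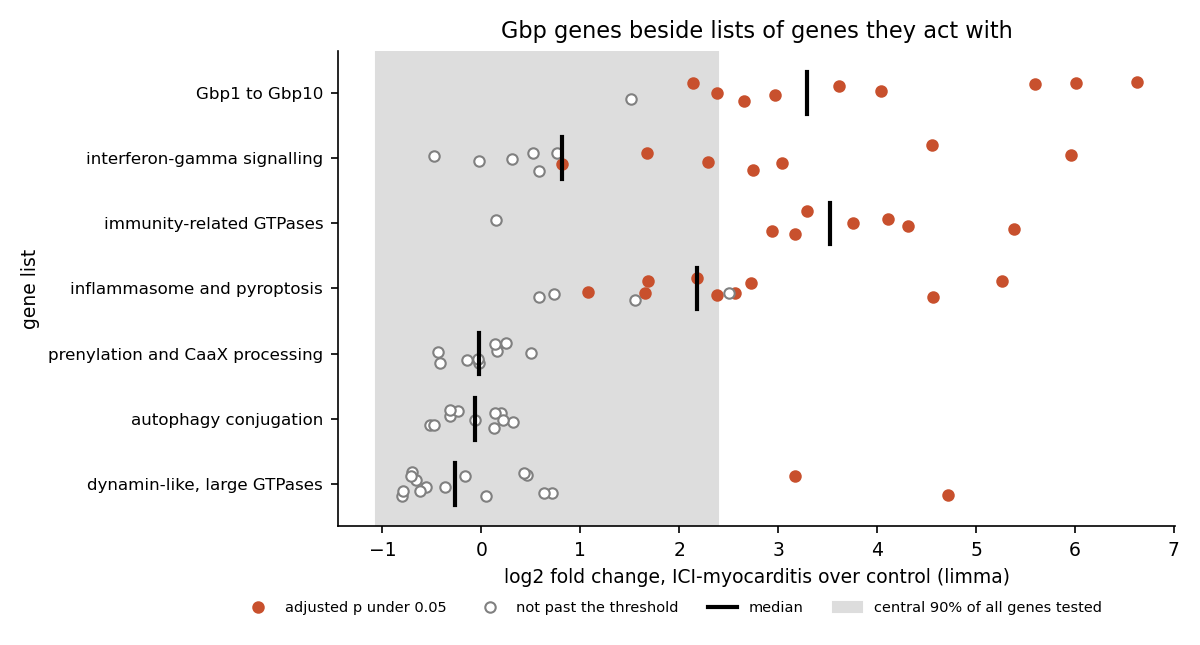
Log2 fold changes (ICI-myocarditis over control, limma) of the 10 members and of 6 lists of genes that act with them or are related to them. Each point is 1 gene tested, filled where the adjusted p-value was under 0.05, and a black line marks the median. The grey band spans the central 90% of all genes tested, from -1.07 to 2.39. Gbp genes and immunity-related GTPases have medians of 3.29 and 3.52, and the prenylation and autophagy genes lie near 0.

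Marker genes of several cell types differed alongside these values. They were read from bulk RNA, and whether cell numbers or marker levels per cell differed was not tested. Over all genes tested, 11.7% were called higher and 4.0% lower. Macrophage and monocyte markers were called higher in 10 of 11 tested, with the largest change in Fcgr1 (log2 fold change 3.46) and the smallest in Cd14 (0.09), and their summed level was 13684 to 19083 normalized counts in controls and 51160 to 76856 in ICI-myocarditis. T cell markers were called higher in 10 of 10, from Cd28 (1.72) to Cd8b1 (5.85), with sums of 344 to 2072 and 8394 to 12789. NK cell markers were called higher in 2 of 4 tested (0 with edgeR and with DESeq2), with sums of 12.5 to 204 in controls and 268 to 384 in ICI-myocarditis, and Klra8 was at 0 in all libraries. B cell and neutrophil markers were each called higher in 1 gene, of 4 and of 3 tested, and their highest ICI-myocarditis sums were 150 and 890 normalized counts. The called neutrophil gene was Csf3r, which read 820 in ICI-myocarditis library 3, and S100a9 had a log2 fold change of -0.62.

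Of resident cell types, endothelial markers were called lower in 4 of 10 and none higher, and their sums were 40073 to 98645 in controls and 32637 to 41441 in ICI-myocarditis. Fibroblast markers were called higher in 2 of 7, and pericyte and smooth muscle markers lower in 2 of 6. The shares over all genes were 11.7% higher and 4.0% lower. Cardiomyocyte markers, the defining genes of the labelled tissue, were present in every library, with sums of 2369810 to 4796840 in controls and 1799250 to 2889870 in ICI-myocarditis. All 8 had log2 fold changes under 0 (median -0.79). In 3 every ICI-myocarditis library was below every control, as in 1724 of all 15258 genes tested. None of the 8 was called with limma. An unadjusted limma p under 0.05 was found in 2 of the 8 and in 4598 of all 15258 genes. DESeq2 called 3 of the 8 lower, and 3441 of all genes in either direction. In these bulk samples a larger number of cells that make a Gbp transcript and more of that transcript per cell cannot be told apart. The part of leukocyte numbers in the Gbp differences was not tested.

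The members followed each other closely from library to library. The Pearson correlation of a member with the mean of the other 9, on log2(normalized count + 1), lay between 0.972 (Gbp9) and 0.995 (Gbp7) over the 7 libraries, which include the difference between groups. The genes with the pattern most like the mean of the members were Spint1, Apol7e, Rasal3, Cd8a and Myo1g, each with a Pearson correlation of 0.998 over the same 7 libraries. Cd8a encodes a chain of the CD8 coreceptor of cytotoxic T cells. These correlations describe 7 libraries of which 3 were inflamed and carry no test.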

How the data were processed

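RNA from 7 mouse hearts was sequenced from stranded total RNA libraries, paired-end with 150-base reads, per the labels' protocols. Reads were aligned with STAR 2.7.3 to GRCm38 (mm10), per the submitters' processing notes. The counting program, its annotation and its use of strand are not given in the sources used here, so reads of overlapping or near-identical genes may be split between them. The deposited values of each library are a signal, the reads of a gene over a size factor of that library, as the values show. The authors' deposited log2 fold change, its standard error, the test statistic (a score), the p-value and the adjusted p-value were read as their own result, under header names as DESeq2 writes them.

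Divided by the smallest step of its column, 100% of values were whole within 0.1, so reads were recovered. For control 1 the step was 1.01, where whole numbers are a weaker sign. No column belonged to other samples. Rows whose names had become dates numbered 27 and held 0.118 to 0.158% of reads. They stayed in the fits and were not named.

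limma 3.58.1 (R 4.3.3) was run on log2(normalized count + 1) with trend and robust variance over the 15258 genes that reached 10 normalized counts in 3 or more libraries, with Benjamini-Hochberg adjustment and a threshold of 0.05. The pseudocount understates changes of low genes. Alternatives were pseudocounts of 0.5 and 5, no filter or a minimum of 50, other scalings, edgeR 4.0.16 and DESeq2 1.42.0 on recovered reads, limma-voom, no trend, a replicate block and leaving out each library. Sums over members were added after seeing the data. No 2 libraries agreed within counting noise. Library totals of 20931730 to 39037176 reads leave counting error small beside the spread between mice for all but the lowest values.

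The members, the gene lists, the tests and the rule for named genes were chosen with earlier results of these data known. The rule named all members, the interferon-gamma signalling list, the 3 tested genes of lowest p-value in each other list, the 5 genes most correlated with the members, the first 3 tested genes on each side of a cluster, Ctla4, Pdcd1, and the highest and lowest marker of a cell type list, and 2 genes that met it are not reported here. Genes of skeletal muscle, erythrocytes, thymus and fat were read as checks of other tissue. For skeletal muscle this check is weak, since heart muscle also expresses Ckm and Acta1 of that list. Their called genes were 1 higher and 1 lower of 3 tested for skeletal muscle and 0 of 4 for red blood cells. The shares over all genes were 11.7% higher and 4.0% lower. Thymus and fat genes were too low to test. The scripts were tested on simulated counts with 200 changed genes, where DESeq2 made more wrong calls than limma and edgeR. Sequences came from RefSeq (GRCm38.p6) and GENCODE M21. Protein sequences were not used.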

Additional observations from a re-analysis of the deposited data

Results flagged for a closer look

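Within the 4 controls, the most extreme library was compared with the nearest other library, as a share of the whole range on the log2 scale. Among 57 genes examined this way the gap was above Dixon's critical value for 4 samples in 8, where chance gives about 1 in 20 groups, or about 3 of 57. These genes are not independent, since most follow each other from library to library. Some were also picked for their correlation with the members, so the 8 cannot be weighed against the number by chance.

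In 3 members control 2 was the extreme library, above the rest. The gap was 0.949 of the range for Gbp1, 0.916 for Gbp10 and 0.896 for Gbp6. The other 7 members had control 2 as the highest library too, with gaps from 0.634 (Gbp9) to 0.812 (Gbp2). Control 2 was also the high library for Irgm1 (0.871). It was so for Myo1g (0.876) and Apol7e (0.834) as well, which follows from picking these genes for their correlation with the members over the same libraries. The library was control 1 for the chromosome 5 neighbour Lrrc8b, on the high side (0.852), and for the prenylation gene Pggt1b, on the low side (0.843).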

How the results depend on the processing

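Of 180 values of the members under 18 alternatives, 157 kept their direction and their side of the threshold, 19 lost the call, 4 gained it (all Gbp9) and none reversed. Gbp members called numbered 9, with 4 under edgeR and 5 to 10 when a library was left out. Genes called numbered 2397, with 4038 under limma-voom, 3441 under DESeq2 and 986 to 3340 when a library was left out. Members of the lists called numbered 25, and 14 to 33 when a library was left out. The same ranges were 4 to 9 for interferon-gamma signalling (7 with all libraries), 3 to 12 for inflammasome genes (9), 0 to 4 for dynamin-like GTPases (2) and 0 to 1 for prenylation (0). For dynamin-like GTPases edgeR gave 0 and limma-voom 4, and for prenylation DESeq2 gave 1 and limma-voom 2. Scaling by library size moved the median of all genes from -0.02 to 0.13 on the log2 scale and the share of calls that were higher from 74.6% to 84.3%. That share was 62.8% under DESeq2 and 62.0% under limma-voom, and the members called by library size scaling numbered 9.

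Values that changed sign were all near 0. Jak1 was at 0.14 with library size scaling, 0.0114 with the replicate block and -0.0965 to 0.0201 when a library was left out. Pkn2 was at 0.00971 with library size scaling. Lrrc8c was at -0.0267 with edgeR, -0.00427 with DESeq2, -0.23 with the block and -0.23 to 0.31 when a library was left out. Pdlim5 was at -0.0192 with edgeR, -0.0179 with DESeq2, -0.15 with limma-voom and -0.14 to 0.20 when a library was left out. Bmpr1b ran from -0.28 to 0.35 when a library was left out. The cause of these changes was not tested.

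Replicate numbers did not pair the samples. Same-numbered libraries had correlations of deviations of -0.27, -0.21 and -0.08. With the replicate block 1780 genes and 9 members were called. The block also drops control 4, which has no partner number. At 5 to 20 normalized counts in 3 controls, the fold changes of Gbp1 and Gbp8 depend on the pseudocount more than those of the other members.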
